A study of Mus musculus with 8 samples.

Results

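The genes described here are 10 CXC chemokine genes of the mouse: Cxcl1, Cxcl2, Cxcl3, Cxcl9, Cxcl10, Cxcl12, Cxcl13, Cxcl16, Pf4 and Ppbp. They were chosen by name, with earlier results of these data known. Counts of them therefore describe this list and not the whole family. Each was read from the probe set that carries its symbol and no other, and all 10 of 10 had such a probe set among the 19938 genes measured that way. The series holds 8 Affymetrix microarrays of cells sorted by flow cytometry, with 1 array for each of 8 groups, from C57BL/6 mice that carry 1 copy of a green fluorescent protein reporter in the fractalkine receptor gene (Cx3cr1gfp/+) in every group. The labels give 3 populations. The CX3CR1int cells came from the colonic lamina propria of male mice at day 4 of colitis induced with dextran sodium sulphate, sorted as Ly6Clo and as Ly6Chi cells. The CX3CR1hi cells are colonic macrophages and gave 4 arrays: F4/80hi cells of male mice at day 4 of colitis, F4/80hi cells of male mice at steady state, monocyte-reconstituted resident macrophages of female mice at steady state and resident macrophages of female mice at steady state. The splenic Ly6Chi monocytes came from male mice at day 4 of colitis and from female mice at steady state. The labels do not say how many mice gave a sample. With 1 array a group, the arrays of a population stood in as replicates although they differ in condition, in sex label or in gate, so each p-value measures the spread between such arrays.

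CXC chemokines are small secreted proteins that attract leukocytes along gradients, and they are named for the single residue between their first pair of cysteines. Cxcl1, Cxcl2, Cxcl3 and the platelet basic protein encoded by Ppbp attract neutrophils through Cxcr2. Cxcl9 and Cxcl10 are induced by interferons and attract activated T cells and natural killer cells through Cxcr3. Cxcl12 holds progenitors and lymphocytes in place through Cxcr4, Cxcl13 draws B cells into follicles through Cxcr5, Cxcl16 is made as a membrane protein that is both a ligand of Cxcr6 and a scavenger receptor, and Pf4, platelet factor 4, is best known from platelet granules. In the gut, macrophages, epithelium and stroma are all known sources of members of this family.

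Of the 10 genes, 8 lie on chromosome 5 in the RefSeq annotation of GRCm38.p6, with Cxcl12 on chromosome 6 and Cxcl16 on chromosome 11. Ppbp, Pf4, Cxcl3, Cxcl1 and Cxcl2 follow each other there, with no other protein-coding gene between them but Cxcl15, and Cxcl9, Cxcl10 and Cxcl13 lie further along. The 250 bases before the start of transcription are printed for the 3 neighbouring neutrophil attractants, whose levels came apart in these cells, and for the interferon-induced pair. They are RefSeq sequences of GRCm38.p6, written 5′ to 3′ along the gene's own strand. Capitals mark matches to a consensus for NF-kB (GGG and TTCC with any 3 bases between them), to the interferon-stimulated response element (GAAA and GAAA with any 2 bases between them) and to TATAAA, each searched on both strands.
Cxcl1 (chr5:90890995-90891244, plus strand): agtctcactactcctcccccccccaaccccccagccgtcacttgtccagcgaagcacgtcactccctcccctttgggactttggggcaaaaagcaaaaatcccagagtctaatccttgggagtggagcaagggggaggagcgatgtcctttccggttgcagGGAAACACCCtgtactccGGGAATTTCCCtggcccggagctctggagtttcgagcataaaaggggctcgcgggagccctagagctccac
Cxcl2 (chr5:90903649-90903898, plus strand): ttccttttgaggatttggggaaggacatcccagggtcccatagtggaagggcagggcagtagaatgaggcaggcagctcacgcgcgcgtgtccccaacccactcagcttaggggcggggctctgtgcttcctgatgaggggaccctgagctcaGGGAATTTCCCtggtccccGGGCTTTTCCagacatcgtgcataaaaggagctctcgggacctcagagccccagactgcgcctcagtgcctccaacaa
Cxcl3 (chr5:90785851-90786100, plus strand): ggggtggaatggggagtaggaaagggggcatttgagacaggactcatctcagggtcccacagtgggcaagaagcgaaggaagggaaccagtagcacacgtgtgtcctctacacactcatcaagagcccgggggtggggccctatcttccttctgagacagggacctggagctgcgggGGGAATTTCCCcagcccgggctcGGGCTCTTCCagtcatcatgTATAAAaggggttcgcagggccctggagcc
Cxcl9 (chr5:92328080-92328329, minus strand): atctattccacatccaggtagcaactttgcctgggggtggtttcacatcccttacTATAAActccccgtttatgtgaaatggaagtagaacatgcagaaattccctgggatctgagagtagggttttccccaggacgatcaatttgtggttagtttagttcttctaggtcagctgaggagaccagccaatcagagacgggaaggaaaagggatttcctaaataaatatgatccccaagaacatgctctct
Cxcl10 (chr5:92348890-92349139, minus strand): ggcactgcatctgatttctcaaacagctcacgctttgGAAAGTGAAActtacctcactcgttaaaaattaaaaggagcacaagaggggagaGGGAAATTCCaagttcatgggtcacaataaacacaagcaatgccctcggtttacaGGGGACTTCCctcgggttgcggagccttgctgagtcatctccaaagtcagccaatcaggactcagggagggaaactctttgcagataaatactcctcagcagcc
The windows of Cxcl1, Cxcl2 and Cxcl3 each hold GGGAATTTCC, beginning 71, 97 and 73 bases before the start, where the match on one strand overlaps a match on the other, and each holds 1 further match nearby. Cxcl10 holds 2 matches to the NF-kB consensus and 1 to the interferon-stimulated response element, which begins 213 bases before the start. Of the 9 members with a promoter in the table, 4 held the NF-kB consensus and 1 the interferon-stimulated response element. Over the promoters of 17491 protein-coding genes, windows of the same length held them in 4.73% and 3.02%. TATAAA was present in 4 of 9 members (Cxcl3, Cxcl9, Cxcl13 and Ppbp), against 12.4% of all promoters. TTCNNNGAA, the interferon gamma activation site, had no match in the 9 windows, against 6.69% of all promoters. These are matches of letters in a short window and say nothing of whether a factor was bound.

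Levels are the deposited log2 values, on which 1 unit is a 2-fold difference. A level of 1 probe set was not set against that of another, since probes differ in brightness. The array medians lay between 5.77 and 5.87. The values of Cx3cr1 itself followed the sorting names, with 7.51 and 7.95 in the CX3CR1int arrays, 10.88 to 11.34 in the CX3CR1hi arrays, and 9.95 and 10.76 in the splenic arrays. Of 10 macrophage markers, all were at or above the array median in every colonic array. So were 10 in the colitis and 8 in the steady-state splenic array. Their mean was 9.34 and 10.01 in the Ly6Clo and Ly6Chi arrays, and 11.76 to 11.99 in the CX3CR1hi arrays. It was 9.51 and 9.14 in the colitis and steady-state splenic arrays. Markers of other cells were present as well. The 12 epithelial markers averaged 8.80 and 9.01 in the CX3CR1int arrays, 9.98 to 10.85 in the CX3CR1hi arrays, and 5.68 and 5.15 in the splenic arrays, and 8 dendritic cell markers averaged 9.41 in the Ly6Clo array but 5.44 to 6.80 in the others. The means of the endothelial (5.08 to 6.49), neutrophil (5.44 to 6.00) and T and NK cell markers (5.02 to 5.80) stayed near or below the array median in every array but for the endothelial mean of the Ly6Chi array, the highest of these. Single genes of these lists were brighter. Csf3r had 8.27 to 10.97 over all arrays, and in the colonic arrays Ly6g had 6.93 to 9.30 and Il7r 7.65 to 10.01. Below the median in every array were 4 of 10 neutrophil and 4 of 7 T and NK cell markers. Of 7 B and plasma cell markers, 3 to 6 were at or above the array median in the colonic arrays. Jchain had 10.71 to 12.46 and Igha 9.31 to 12.21 there. In such bulk samples, fewer cells of a type and less RNA per cell cannot be told apart.

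**Figure D1:**
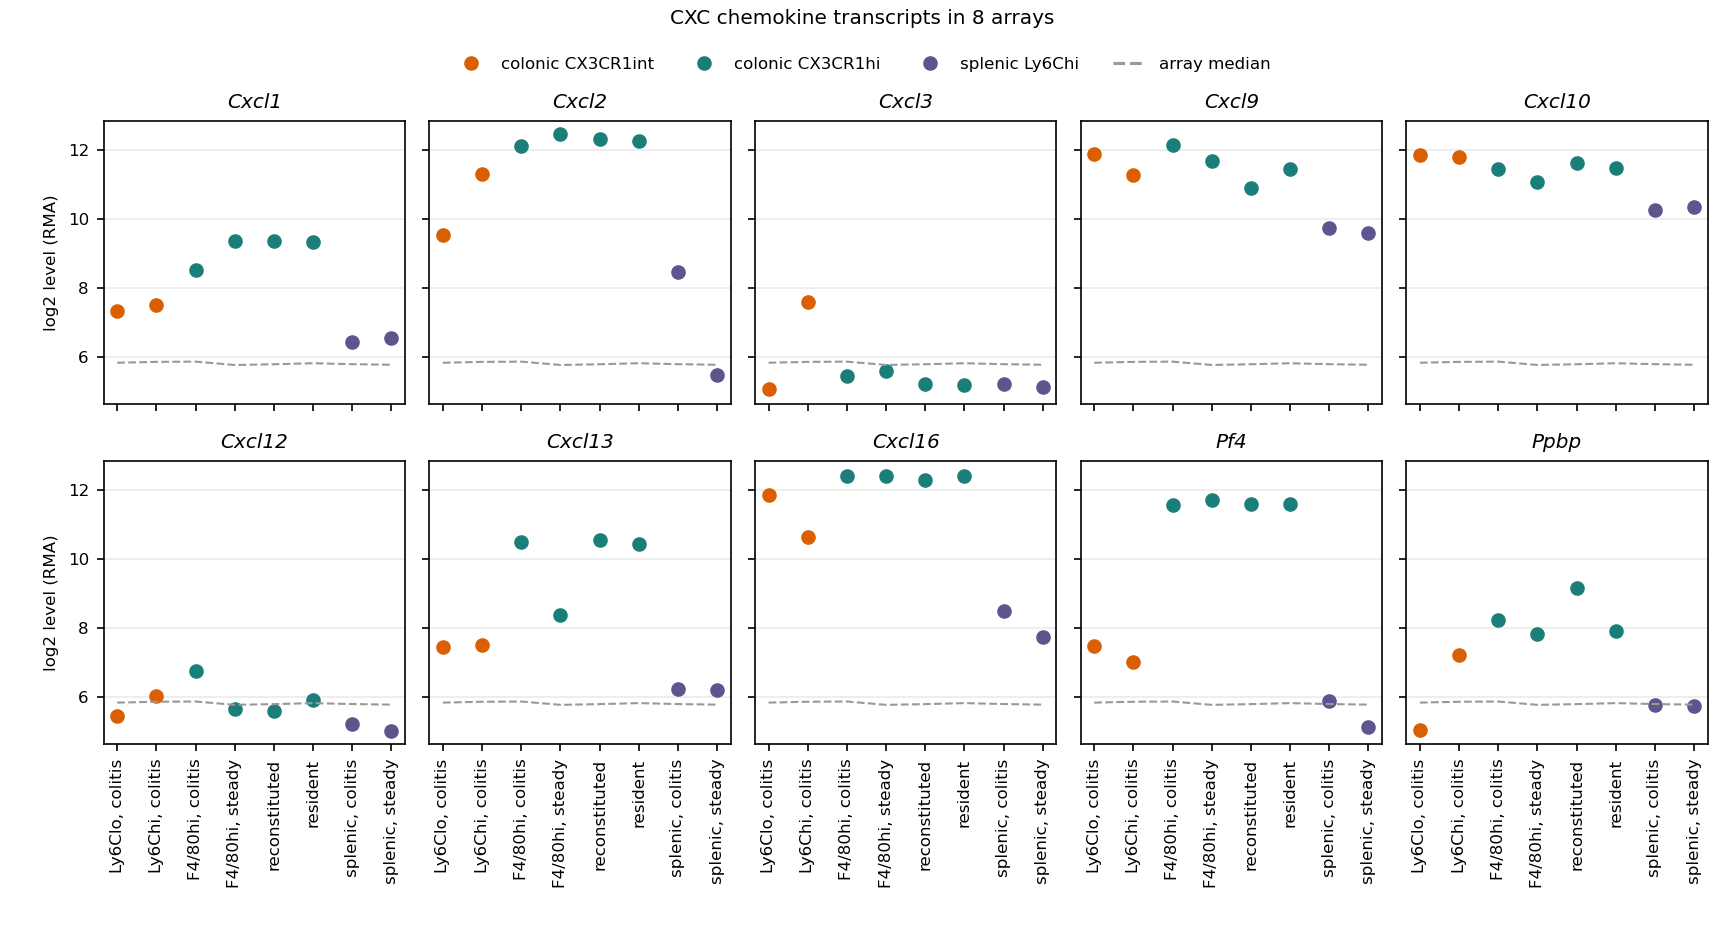
Log2 level (vertical axis) of each of the 10 CXC chemokine genes in each of the 8 arrays (horizontal axis), 1 point an array, coloured by population, with the array median as a dashed line. Pf4, Cxcl16 and Cxcl2 sit near 12 in all 4 CX3CR1hi arrays and far lower in the splenic arrays, while Cxcl3 is above the array median in the Ly6Chi colitis array alone (7.59).

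Colonic CX3CR1hi macrophages carried more RNA of nearly every member than splenic monocytes. Pf4 was 69.0-fold higher, Cxcl2 40.0-fold, Cxcl16 19.1-fold, Cxcl13 13.4-fold, Cxcl1 6.28-fold, Cxcl9 3.68-fold and Cxcl10 2.13-fold, and Ppbp was higher by 2.54 log2 units. With limma over all 10673 genes tested and Benjamini-Hochberg adjustment, 8 of the 9 members tested were called at an adjusted p under 0.05, all of them higher in CX3CR1hi cells, where 51.2% of all genes tested were called and 22.2% were called higher. The arrays of the 2 populations did not overlap for any of the 9, which held for 74.3% of all genes. Cxcl12 was not called. Cxcl3 was not tested, as it reached the array median in only 1 array. A gene had to reach the median in at least 2 arrays, so members that are bright in 1 population only were kept because of that population. The 9 members had a median log2 difference of 2.65, and all genes tested one of -0.12.

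The CX3CR1int cells of the inflamed colon had the highest mean level of the 3 populations for Cxcl9 and Cxcl10. Their mean lay between those of the other populations for the other members tested. How many of all genes had such an order was not counted. For Ppbp that mean (6.13) joins 5.03 in the Ly6Clo and 7.23 in the Ly6Chi array, below and above both splenic arrays. Against CX3CR1hi cells, 5 of 9 members were lower at an adjusted p under 0.05 (Pf4, Cxcl13, Ppbp, Cxcl1 and Cxcl16) and none was called higher, where 29.9% of all genes tested were called and 16.6% were called lower. The arrays did not overlap for 7 of 9 members, against 48.9% of all genes. Against splenic monocytes, 5 of 9 were called (Cxcl2, Cxcl16, Cxcl9, Pf4 and Cxcl10), all higher, where 24.4% of all genes were called and 10.2% were called higher. There the arrays did not overlap for 8 of 9, against 68.3% of all genes. The members' median difference was -1.73 against CX3CR1hi cells and 1.52 against splenic monocytes, with 0.01 and -0.08 over all genes. These 3 contrasts share arrays with each other and are not independent. Both CX3CR1int arrays are colitis arrays of male mice, so population is partly mixed with condition and sex label: with condition as an added term in the fit, 2 of the 5 members kept the call against CX3CR1hi cells (Pf4 and Cxcl1), and likewise 2 with the sex label. The count against CX3CR1hi cells was 3 when the reconstituted, the colitis F4/80hi or the Ly6Clo array was left out, and that against splenic monocytes 3 when the steady-state splenic array was left out. A fit to the 4 colitis arrays alone, with 1 residual degree of freedom, called no gene at all by limma's adjusted p. At an unadjusted p under 0.05 it held 8 of 9 members for CX3CR1hi against splenic cells, where 17.0% of all genes passed, 3 for CX3CR1int against CX3CR1hi cells, where 11.0% did, and 6 for CX3CR1int against splenic cells, where 11.2% did.

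**Figure D2:**
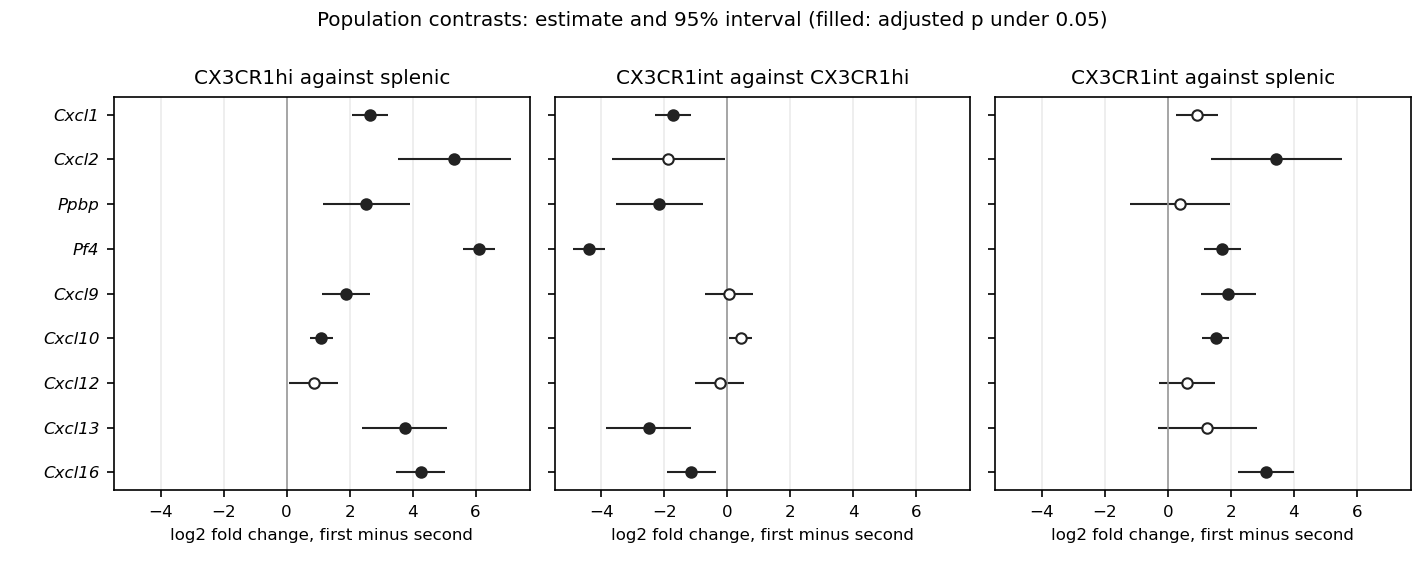
Log2 fold change (horizontal axis) of the 9 members tested in the 3 population contrasts, first-named population minus the second, with limma's 95% confidence interval as a bar and a filled point where the adjusted p was under 0.05. All 9 estimates lie above 0 for CX3CR1hi against splenic cells, and Pf4 has the largest one in that panel (6.11) and the furthest below 0 in the middle panel (-4.38).

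Among the neutrophil attractants, Cxcl2 had the widest spread over the 8 arrays. Cxcl2 had 9.53 in the Ly6Clo and 11.32 in the Ly6Chi CX3CR1int array. It had 12.11 in colitis F4/80hi, 12.47 in steady-state F4/80hi, 12.33 in reconstituted and 12.28 in resident CX3CR1hi cells, and 8.46 in colitis and 5.50 in steady-state splenic monocytes. The 4 macrophage arrays lay within 0.36 of each other, and the 3 populations did not overlap, but the arrays within the other populations were far apart. CX3CR1hi cells were 5.32 ± 0.77 higher than splenic cells (log2 difference ± SE from limma, adjusted p = 0.00102), and the difference was 3.84 without the steady-state and 6.80 without the colitis splenic array. CX3CR1int cells were 3.45 ± 0.89 higher than splenic cells (adjusted p = 0.0294). That call was lost, at 1.96, without the steady-state splenic array (adjusted p = 0.118), at 2.55 without the Ly6Chi array (adjusted p = 0.0839) and at 3.45 without the steady-state F4/80hi array (adjusted p = 0.0511). It was also lost with condition (2.93, adjusted p = 0.0798) or the sex label (2.96, adjusted p = 0.0656) as an added term, with no brightness filter (adjusted p = 0.0504), in a fit to the arrays compared (adjusted p = 0.147) and in the fit to the colitis arrays (adjusted p = 0.523). Against CX3CR1hi cells the CX3CR1int mean was at -1.88 (95% interval -3.67 to -0.08, adjusted p = 0.105), and the adjusted p was 0.0286 when either splenic array was left out.

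Cxcl1, which lies next to Cxcl2 on chromosome 5, varied less within the CX3CR1int and the splenic cells. It had 7.33 and 7.50 in the Ly6Clo and Ly6Chi CX3CR1int arrays, 8.53, 9.38, 9.36 and 9.33 in the colitis F4/80hi, steady-state F4/80hi, reconstituted and resident CX3CR1hi arrays, and 6.43 and 6.57 in the colitis and steady-state splenic arrays. No 2 populations overlapped. CX3CR1hi cells were 2.65 ± 0.25 above splenic cells (adjusted p = 0.000129), and CX3CR1int cells were below CX3CR1hi cells (log2 difference -1.73 ± 0.25, adjusted p = 0.00287). Both calls held with each array left out in turn. CX3CR1int cells stood at 0.92 ± 0.29 above splenic cells, which missed the threshold (adjusted p = 0.052), passed it with condition as an added term (1.20, adjusted p = 0.0166) and passed it without the colitis F4/80hi array (adjusted p = 0.00633).

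Cxcl3, another ligand of Cxcr2, was near the floor almost everywhere. It had 5.08 in the Ly6Clo array and 7.59 in the Ly6Chi array. The CX3CR1hi arrays had 5.19 to 5.59 and the splenic arrays 5.23 and 5.13, all below their array medians. The single high value came from Ly6Chi CX3CR1int cells in colitis, so it rests on 1 array and has no test. Cxcl1, Cxcl2 and Cxcl3 are close paralogs, and how well the probe sets tell them apart was not tested.

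Epithelial markers moved with these genes: 12 of 12 were higher in CX3CR1hi than in splenic cells, 8 of 12 were lower in CX3CR1int than in CX3CR1hi cells, and 10 of 12 were higher in CX3CR1int than in splenic cells, all at an adjusted p under 0.05 by limma. Of all genes tested, 22.2%, 16.6% and 10.2% were called in those directions. Colonic epithelium can make Cxcl1. Within the CX3CR1hi arrays the epithelial mean was 9.98, 10.14, 10.43 and 10.85 in the colitis F4/80hi, steady-state F4/80hi, reconstituted and resident arrays. The colitis F4/80hi array was the lowest of the 4 both for this mean and for Cxcl1. In the steady-state F4/80hi, reconstituted and resident arrays Cxcl1 had 9.38, 9.36 and 9.33. These single values lay within 0.05 of each other, so their order was not read. The part of epithelial RNA in the Cxcl1 and Cxcl2 differences was not tested. Immediate early genes, which dissociation and sorting can induce, moved as well in the contrasts with splenic cells. There 15 of 15 tested were higher in CX3CR1hi and 9 of 15 in CX3CR1int cells, where 22.2% and 10.2% of all genes were. In CX3CR1int against CX3CR1hi cells 1 of 15 was higher and 2 were lower, where 29.9% of all genes were called. The mean of the immediate early genes was 10.36 and 10.48 in the CX3CR1int arrays, 10.68 to 10.94 in the CX3CR1hi arrays, and 9.47 and 8.39 in the colitis and steady-state splenic arrays, and their part in the result was not tested.

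Pf4 separated the macrophages from all other arrays by the widest margin. It had 7.48 and 7.01 in the Ly6Clo and Ly6Chi CX3CR1int arrays, 11.56, 11.72, 11.59 and 11.61 in the colitis F4/80hi, steady-state F4/80hi, reconstituted and resident CX3CR1hi arrays, and 5.88 and 5.15 in the colitis and steady-state splenic arrays. The 4 macrophage values spanned 0.16, and none of the 3 populations overlapped. CX3CR1hi cells were 6.11 ± 0.22 above splenic cells (adjusted p = 6.01e-06). CX3CR1int cells were below CX3CR1hi cells (log2 difference -4.38 ± 0.22, adjusted p = 4.16e-05) and 1.73 ± 0.25 above splenic cells (adjusted p = 0.0034). All 3 calls held with each array left out in turn, and only the last was lost when the fit used no more than the arrays compared (adjusted p = 0.0567).

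Ppbp, which lies next to Pf4 and is also known from platelets, was less even. It had 5.03 in the Ly6Clo and 7.23 in the Ly6Chi array, 8.23, 7.82, 9.16 and 7.91 in the colitis F4/80hi, steady-state F4/80hi, reconstituted and resident CX3CR1hi arrays, and 5.76 and 5.73 in the colitis and steady-state splenic arrays. The macrophages were above every other array, and the Ly6Clo array was the lowest of all. CX3CR1hi cells were 2.54 ± 0.59 above splenic cells (adjusted p = 0.00897), which became 0.0587 without the steady-state and 0.054 without the colitis splenic array. CX3CR1int cells were below CX3CR1hi cells (log2 difference -2.15 ± 0.59, adjusted p = 0.0305). That difference was -1.05 without the Ly6Clo array (adjusted p = 0.131), -3.25 without the Ly6Chi array (adjusted p = 0.00284) and -1.86 without the reconstituted array (adjusted p = 0.0608), and its adjusted p was 0.0535 to 0.057 without the colitis F4/80hi or either splenic array. Against splenic cells CX3CR1int cells were at 0.39 (95% interval -1.21 to 1.98, adjusted p = 0.704), with opposite signs in the 2 arrays.

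Of the platelet and megakaryocyte markers, 9 of 13 were measured and 6 of these were below the array median in every array, among them the receptor subunit Itga2b (5.22 at most), Gp9 (5.28 at most) and Gp5 (4.67 at most). The mean of the measured markers lay between 5.01 and 5.32 over all 8 arrays. Itgb3 was above the array median in the splenic arrays alone, with 6.38 in colitis and 6.55 at steady state. Vwf was above it in the reconstituted (6.04) and steady-state F4/80hi arrays (5.83). Clec1b, a platelet and myeloid receptor, had 7.53 in the reconstituted array, where Ppbp was also at its highest, and 4.85 to 5.54 in the others. Its part in the Ppbp value was not tested.

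The interferon-induced pair was well above the median in all 8 arrays and had the smallest differences among the 8 members called in CX3CR1hi against splenic cells. Cxcl9 had 11.90 and 11.29 in the Ly6Clo and Ly6Chi CX3CR1int arrays, 12.14, 11.69, 10.90 and 11.46 in the colitis F4/80hi, steady-state F4/80hi, reconstituted and resident CX3CR1hi arrays, and 9.74 and 9.59 in the colitis and steady-state splenic arrays. The colonic populations overlapped each other and lay above both splenic arrays. CX3CR1hi cells were 1.88 ± 0.33 above splenic cells (adjusted p = 0.00228) and CX3CR1int cells 1.93 ± 0.38 above them (adjusted p = 0.0106). The second call was lost without the steady-state (1.85, adjusted p = 0.0783) or the colitis splenic array (2.00, adjusted p = 0.0536). CX3CR1int and CX3CR1hi cells differed by 0.05 (95% interval -0.71 to 0.80, adjusted p = 0.93).

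Cxcl10 had 11.86 and 11.80 in the Ly6Clo and Ly6Chi CX3CR1int arrays, 11.45, 11.08, 11.61 and 11.48 in the colitis F4/80hi, steady-state F4/80hi, reconstituted and resident CX3CR1hi arrays, and 10.28 and 10.35 in the colitis and steady-state splenic arrays. It was the only member whose CX3CR1int arrays both stood above every CX3CR1hi array. That difference was 0.43 ± 0.16 and missed the threshold (95% interval 0.06 to 0.79, adjusted p = 0.0762), and it missed it with each array left out (adjusted p 0.064 to 0.183). Cxcl10 was 1.09 ± 0.16 higher in CX3CR1hi than in splenic cells (adjusted p = 0.000992) and 1.52 ± 0.18 higher in CX3CR1int than in splenic cells (adjusted p = 0.00161), both of which held with each array left out in turn.

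Cxcl11, another CXC chemokine gene, is not one of the 10 and had a sharper pattern of RNA. Whether these mice make its protein was not tested. Cxcl11 had 8.66 and 7.42 in the Ly6Clo and Ly6Chi arrays, at most 6.16 in the CX3CR1hi arrays and at most 5.68 in the splenic arrays. Both CX3CR1int arrays lay above all others. CX3CR1int cells were 2.34 ± 0.36 above CX3CR1hi cells (adjusted p = 0.00372) and 2.46 ± 0.41 above splenic cells (adjusted p = 0.00597). Among 8 tested genes of the interferon gamma axis, 3 were higher and 0 lower in CX3CR1int than in CX3CR1hi cells. These were the kinase Jak2 (1.96 ± 0.20, adjusted p = 0.00068), the transcription factor Irf1 (0.96 ± 0.27, adjusted p = 0.0319) and the receptor chain Ifngr1 (0.43 ± 0.11, adjusted p = 0.0225). In CX3CR1hi against splenic cells 2 were higher, Iigp1, a guanosine triphosphatase induced by interferon (2.53 ± 0.67, adjusted p = 0.0151), and Ciita, the regulator of class II antigen presentation genes (1.26 ± 0.27, adjusted p = 0.00599), and 2 were lower, Jak2 (-0.63) and Ifngr1 (-0.66). In CX3CR1int against splenic cells 4 were higher (Iigp1, Ciita, Jak2 and Irf1) and none lower. These counts of 3, 4 and 4 of 8 called stand beside 29.9%, 51.2% and 24.4% of all genes called in the same contrasts. The median of the 8 genes was 0.40, -0.05 and 0.66 there. Ifng itself was below the median in every array (5.13 at most).

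Cxcl16 was high in both colonic populations and lower in splenic monocytes. It had 11.85 and 10.62 in the Ly6Clo and Ly6Chi CX3CR1int arrays, 12.40, 12.40, 12.28 and 12.42 in the colitis F4/80hi, steady-state F4/80hi, reconstituted and resident CX3CR1hi arrays, and 8.50 and 7.74 in the colitis and steady-state splenic arrays. The 3 populations did not overlap. CX3CR1hi cells were 4.25 ± 0.33 above splenic cells (adjusted p = 5.7e-05) and CX3CR1int cells 3.11 ± 0.38 above them (adjusted p = 0.00185), and both calls held with each array left out. CX3CR1int cells were below CX3CR1hi cells (log2 difference -1.14 ± 0.33, adjusted p = 0.0372). That difference was -0.53 without the Ly6Chi array (adjusted p = 0.152) and -1.75 without the Ly6Clo array (adjusted p = 0.0041), and its adjusted p was 0.0685 to 0.0753 when any 1 of the 4 CX3CR1hi arrays was left out. Its receptor Cxcr6 was below the median in every array (5.31 at most).

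Cxcl12, one of the homeostatic members, was dim in all of these cells. It had 5.44 and 6.04 in the Ly6Clo and Ly6Chi CX3CR1int arrays, 6.74, 5.65, 5.61 and 5.92 in the colitis F4/80hi, steady-state F4/80hi, reconstituted and resident CX3CR1hi arrays, and 5.23 and 5.01 in the colitis and steady-state splenic arrays. It was above the array median in the Ly6Chi, resident and colitis F4/80hi arrays, furthest in the last, and below it in the other arrays. CX3CR1hi cells were at 0.86 ± 0.33 above splenic cells (95% interval 0.09 to 1.63, adjusted p = 0.0619), which was 0.0491 when either CX3CR1int array was left out and 0.0157 with condition as an added term. No other contrast of Cxcl12 passed the threshold (adjusted p = 0.618 for CX3CR1int against CX3CR1hi cells and 0.267 for CX3CR1int against splenic cells). Stromal cells are the best known source of Cxcl12. The 10 stromal markers averaged 6.32 and 7.24 in the Ly6Clo and Ly6Chi arrays, 7.40, 6.59, 6.12 and 6.75 in the colitis F4/80hi, steady-state F4/80hi, reconstituted and resident arrays, and 5.44 and 5.45 in the colitis and steady-state splenic arrays. The colitis F4/80hi array was the highest for this mean as it was for Cxcl12, and the stromal proteoglycan Dcn stood at 11.43 there against 9.99 in steady-state F4/80hi cells. The part of stromal RNA in the Cxcl12 values was not tested.

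Cxcl13, the other homeostatic member, was far brighter in macrophages than elsewhere. It had 7.44 and 7.51 in the Ly6Clo and Ly6Chi CX3CR1int arrays, 10.50, 8.37, 10.54 and 10.45 in the colitis F4/80hi, steady-state F4/80hi, reconstituted and resident CX3CR1hi arrays, and 6.22 and 6.21 in the colitis and steady-state splenic arrays. Of the macrophage arrays, 3 lay within 0.09 of each other and the steady-state F4/80hi array more than 2 units below them, yet above every array of the other populations. CX3CR1hi cells were 3.75 ± 0.58 above splenic cells (adjusted p = 0.00138), a call that held with each array left out. CX3CR1int cells were below CX3CR1hi cells (log2 difference -2.49 ± 0.58, adjusted p = 0.0173), which became -3.02 without the steady-state F4/80hi array (adjusted p = 0.000133) and lost the call without the Ly6Clo array (adjusted p = 0.0582). CX3CR1int cells were at 1.26 ± 0.67 above splenic cells (adjusted p = 0.204), and the adjusted p was 0.00231 without the steady-state F4/80hi array. Lymphotoxin drives Cxcl13 in follicular stroma, and of 5 tested genes of that axis none was higher and 3 were lower in CX3CR1hi than in splenic cells (Map3k14, Tnfrsf1a and Nfkb2). In CX3CR1int against CX3CR1hi cells 4 of 5 were higher, among them the kinase Map3k14 (1.83 ± 0.17, adjusted p = 0.0005) and the NF-kB subunit Relb (1.27 ± 0.22, adjusted p = 0.00662). In CX3CR1int against splenic cells 3 were higher and none lower. The median of the 5 genes was -0.58, 0.89 and 0.52 in these 3 contrasts, where 51.2%, 29.9% and 24.4% of all genes were called. The part of this axis in the Cxcl13 values was not tested.

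**Figure D3:**
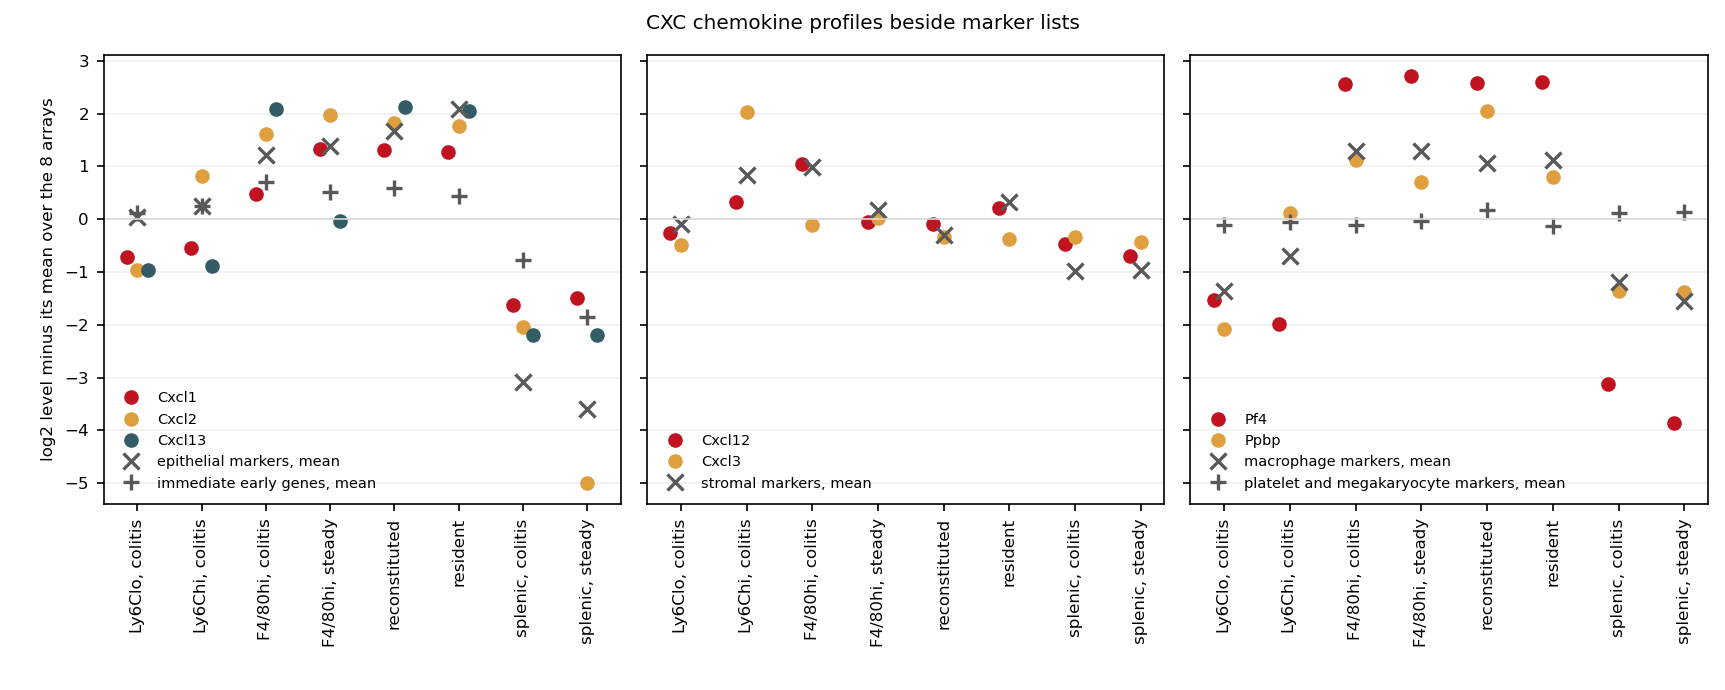
Log2 level minus its mean over the 8 arrays (vertical axis) for members (points) and for the means of marker lists (crosses and plus signs) in each array (horizontal axis). Cxcl13 is lower in the steady-state F4/80hi array than in the other CX3CR1hi arrays (left), Cxcl12 and the stromal mean are both highest in the colitis F4/80hi array (middle), and Pf4 separates the macrophage arrays while the platelet mean stays flat (right).

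Comparisons within a population set 1 array against 1 array, so they have no replicate check and no p-value, and a difference of 1 log2 unit (2-fold) was counted. A gene entered when its brighter array reached the array median, so a member bright in 1 array alone entered through that array. Colitis against steady state in F4/80hi macrophages, both of male mice, set 2 of 9 members that far apart, both higher, where 1.47% of all genes were 2-fold apart and 1.23% were 2-fold higher. Cxcl13 was 2.13 higher in colitis and Cxcl12 1.10 higher. The value of Cxcl13 depended on which steady-state array was used, since it was 0.05 against the resident and -0.043 against the reconstituted macrophages, which have another sex label. Cxcl12 was 0.82 and 1.13 higher there. In all, 0 of 9 members were 2-fold apart from the resident cells, where 4.51% of all genes were, and 2 of 9 from the reconstituted cells (Cxcl12 and Cxcl9), where 3.60% were. Cxcl1 was lower in colitis F4/80hi cells than in all 3 steady-state macrophage arrays, by -0.85 against F4/80hi, -0.80 against resident and -0.83 against reconstituted cells. Ppbp was at 0.41 against F4/80hi, 0.32 against resident and -0.93 against reconstituted cells, and Cxcl10 at 0.37, -0.028 and -0.16. Cxcl9 was 0.45, 0.68 and 1.24 higher than in the steady-state F4/80hi, resident and reconstituted cells. Pf4, Cxcl16 and Cxcl2 stayed within 0.36 of each of the 3 steady-state arrays. Of the stromal markers, 4 of 9 were 2-fold higher in colitis than in steady-state F4/80hi cells and none lower, with a median of 0.74.

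In splenic monocytes, colitis against steady state set 1 of 7 members 2-fold apart, where 0.708% of all genes were that far apart. Cxcl2 had 8.46 in colitis and 5.50 at steady state, a difference of 2.96. Cxcl16 (0.76) and Pf4 (0.73) were next, and Cxcl1, Cxcl9, Cxcl10 and Cxcl13 were all within 0.16. Immediate early genes were higher too, 8 of 14 by 2-fold with a median of 1.20. So were 3 of 5 epithelial markers that entered this comparison, with a median of 1.56 and the mucin gene Muc2 at 7.44 in colitis and 5.06 at steady state, and 3 of 5 B and plasma cell markers, with a median of 1.01. None of these lists had a gene 2-fold lower, and their part in the Cxcl2 difference was not tested. The 2 arrays also differ in sex label, which cannot be told apart from colitis here. Whether the colitis difference of a member differed between spleen and colon was not tested, with 1 array in each group.

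Within the CX3CR1int cells of the inflamed colon, Ly6Clo against Ly6Chi cells set 4 of 10 members 2-fold apart, where 12.0% of all genes were. The 3 members that were 2-fold lower in Ly6Clo cells, where 5.51% of all genes were, are neutrophil attractants: Cxcl3 (5.08 against 7.59, a difference of -2.51), Ppbp (5.03 against 7.23, -2.19) and Cxcl2 (9.53 against 11.32, -1.79). Cxcl3 and Ppbp were below the median of the Ly6Clo array (5.84), so they entered only through the Ly6Chi array, where they were higher. Cxcl16 was 1.22 higher (11.85 against 10.62), and Cxcl9 was 0.61 higher. Cxcl1, Cxcl10 and Cxcl13 lay within 0.17 in the 2 arrays, so the neighbouring genes Cxcl1, Cxcl2 and Cxcl3 did not move together between these gates. All 8 dendritic cell markers were 2-fold higher in Ly6Clo cells, and 5 of 7 monocyte markers were 2-fold lower. Of 7 B and plasma cell markers 6 entered this comparison, and 5 were 2-fold lower in Ly6Clo cells. Also 2-fold lower were 4 of 9 stromal (median -0.81), 4 of 10 macrophage (median -0.72), 2 of 5 endothelial and 2 of 3 neutrophil markers, while 1 endothelial and 1 neutrophil marker were 2-fold higher. The part of these cell types in these differences was not tested.

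Reconstituted against resident macrophages set 1 of 9 members 2-fold apart, where 1.76% of all genes were. This was Ppbp, with 9.16 in reconstituted and 7.91 in resident cells. The other 8 were within 0.57, and Cxcl1, Cxcl2, Cxcl13 and Pf4 within 0.10. Steady-state F4/80hi against resident macrophages, which differ in sex label and in gate but not in condition, also set 1 of 9 apart, where 3.64% of all genes were 2-fold apart: Cxcl13, with 8.37 in F4/80hi and 10.45 in resident cells. That difference, -2.08, is close in size to the colitis difference of Cxcl13 in F4/80hi cells, and the same steady-state F4/80hi array enters both. Reconstituted against steady-state F4/80hi macrophages set 2 of 8 members apart, Cxcl13 (2.17) and Ppbp (1.34), where 2.09% of all genes were.

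Among cells sorted from mice with colitis alone, Ly6Chi CX3CR1int cells of the colon were 2-fold above colitis splenic Ly6Chi monocytes for 9 of 10 members, where 9.79% of all genes were 2-fold higher. The exception was Cxcl12 (0.81), and Cxcl2 (2.86), Cxcl3 (2.36) and Cxcl16 (2.12) were furthest apart. Ly6Clo CX3CR1int cells were 2-fold above colitis splenic monocytes for 6 of the 7 members that could be compared, where 13.2% of all genes were. Epithelial markers were 2-fold higher for 11 of 11 and 10 of 10 markers in these comparisons. Against colitis F4/80hi macrophages, Ly6Chi cells were 2-fold lower for 5 of 10 members and higher for Cxcl3 (2.13), where 14.4% of all genes were 2-fold apart and 9.07% were lower, and Ly6Clo cells were 2-fold lower for 6 of 9, where 11.8% were. Pf4 was furthest apart in both, by -4.56 in Ly6Chi and -4.08 in Ly6Clo cells.

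**Figure D4:**
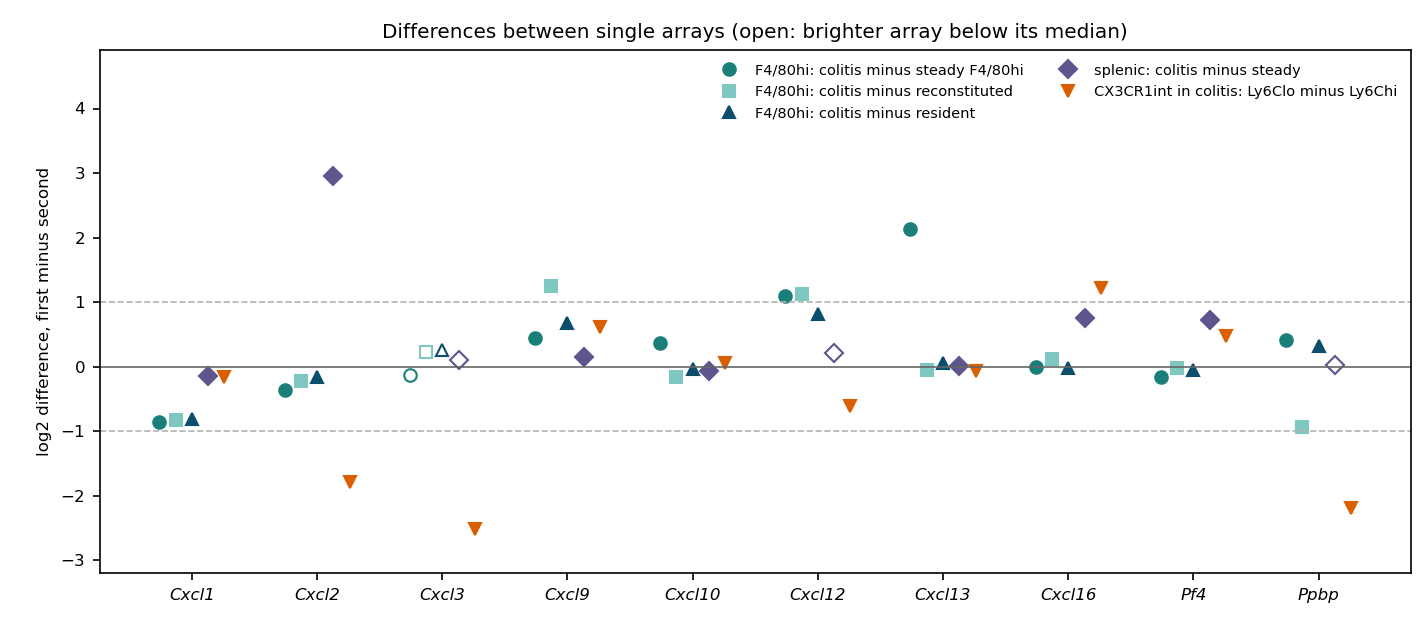
Log2 difference between 2 single arrays (vertical axis, first minus second) for each member (horizontal axis); dashed lines mark 2-fold and open symbols a pair whose brighter array is below its median. Cxcl2 stands out in the spleen (2.96), Cxcl13 in F4/80hi cells only against the steady-state F4/80hi array (2.13), and Cxcl3, Ppbp and Cxcl2 lie below -1 for Ly6Clo against Ly6Chi cells.

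Of 9 receptors for CXC chemokines, 3 passed the filter. Cxcr3, the receptor of Cxcl9 and Cxcl10, was 1.34 ± 0.17 higher in CX3CR1hi than in splenic cells (adjusted p = 0.000503) and lower in CX3CR1int than in CX3CR1hi cells (log2 difference -1.39 ± 0.17, adjusted p = 0.00133). Cxcr4, the receptor of Cxcl12, was 0.53 ± 0.11 higher in CX3CR1hi than in splenic cells (adjusted p = 0.00602), and Ackr1, which binds inflammatory chemokines without signalling, was 0.63 ± 0.18 higher in CX3CR1int than in splenic cells (adjusted p = 0.0377). Cxcr1, Cxcr2, Cxcr5, Cxcr6, Ackr3 and Ackr4 were below the median in every array, so the receptors of the neutrophil attractants and of Cxcl13 were not above that level in any of these cells.

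Among 11 tested genes that cut, shed or bind chemokines, 4 were higher and 2 lower in CX3CR1hi than in splenic cells, a share near the 51.2% of all genes called, and the median was 0.53. The protease Mmp2, which inactivates Cxcl12, was 5.29 ± 0.20 higher (adjusted p = 6.59e-06), the macrophage protease Mmp12, which cuts neutrophil attractants, 4.05 ± 0.61 higher (adjusted p = 0.0012), and the proteoglycan Sdc4 4.01 ± 0.26 higher (adjusted p = 2.47e-05), while Mmp8, a neutrophil collagenase, was at -6.38 ± 1.08 (adjusted p = 0.00202). In CX3CR1int against CX3CR1hi cells 2 were higher, among them Dpp4, the peptidase that trims Cxcl9, Cxcl10 and Cxcl12 (1.77 ± 0.44, adjusted p = 0.0214), and 3 were lower (Mmp2, Mmp12 and Sdc4), where 29.9% of all genes were called. In CX3CR1int against splenic cells 2 were higher (Mmp2 and Sdc4) and none lower, where 24.4% of all genes were called. The shedding proteases of Cxcl16, Adam10 and Adam17, did not pass the threshold in any of the 3 contrasts.

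Of 12 tested genes that drive or restrain NF-kB, 8 were higher and 3 lower in CX3CR1hi than in splenic cells, where 51.2% of all genes were called, and 7 were higher and none lower in CX3CR1int than in splenic cells, where 24.4% were. The median of the list was 1.10 and 0.91 in these contrasts. The cytokine Il1a was 5.94 ± 0.63 higher in CX3CR1hi cells (adjusted p = 0.000232) and 4.63 ± 0.73 higher in CX3CR1int cells (adjusted p = 0.00463), each against splenic cells, and Il1b 2.56 ± 0.18 and 2.84 ± 0.21 higher (adjusted p = 3.67e-05 and 0.00027). The feedback inhibitor Tnfaip3 was 2.31 ± 0.15 and 1.88 ± 0.17 higher (adjusted p = 2.35e-05 and 0.000556). The interleukin 17 receptor chain Il17ra was lower in CX3CR1hi than in splenic cells (-2.90 ± 0.38, adjusted p = 0.000666). In CX3CR1int against CX3CR1hi cells 2 were higher (Il17ra and Myd88) and 1 lower, Tnf (-1.08 ± 0.22, adjusted p = 0.0103), where 29.9% of all genes were called. Of 5 other CXC chemokine genes, Cxcl11 and Cxcl14 passed the filter, and Cxcl14, an epithelial chemokine, was 0.48 ± 0.15 higher in CX3CR1hi than in splenic cells (adjusted p = 0.0265). Cxcl5, Cxcl15 and Cxcl17 were below the median in every array.

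For the 9 members that passed the filter, all but Cxcl3, the 8 levels less their mean were set against those of 10221 other genes, and the root mean square of the 8 differences was taken as the distance. Cxcl1 lay nearest to Lrig1 (0.17 log2 units), Map7 (0.19) and Akr1c12 (0.20), and Cxcl2 to Clca3b (0.66), Gsdmc2 (0.68) and the mucin gene Muc2 (0.68). Muc2 is one of the 12 epithelial markers. Lrig1 had 7.05 to 8.18 in the CX3CR1hi arrays, and 5.23 and 5.09 in the colitis and steady-state splenic arrays. Cxcl9 lay nearest to Slc41a2 (0.24), Ttc39b (0.31) and Clic4 (0.31). For Cxcl10 the nearest were Nfkbid (0.13), Mif (0.13) and Chd7 (0.16), for Cxcl12 Pdlim3 (0.10), Cavin1 (0.15) and Tagln (0.16), and for Cxcl16 Nek6 (0.17), Mgat4a (0.32) and Rasgef1b (0.34). Pf4 lay nearest to the complement gene C1qa (0.36), which is one of the 10 macrophage markers, Itga9 (0.36) and Hpgds (0.39). For Ppbp the nearest were Ces1g (0.38), Slc7a8 (0.41) and C5ar1 (0.44). Cxcl13 had Atoh1, a transcription factor of secretory epithelium, nearest (0.37), then Reep6 (0.56) and Rnf128 (0.56). Atoh1 was also lowest among the CX3CR1hi arrays in steady-state F4/80hi cells, with 8.59, 7.67, 8.63 and 9.25 in colitis F4/80hi, steady-state F4/80hi, reconstituted and resident cells. None of the 9 was among the 3 genes nearest to another member, and of the 45 pairs of members the closest were Cxcl10 with Cxcl12 (0.50) and Cxcl9 with Cxcl10 (0.54). These distances rest on 8 arrays that share tissue and condition, and a member that varies little can lie close to any gene that varies little.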

How the data were processed

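RNA of sorted mouse cells was measured on 8 Affymetrix arrays, 1 array per group. The authors deposited 1 table of log2 values for 35399 probe sets, made with RMA and Partek per the submitters' processing notes; order and versions are not given in the sources used here. Such values are background-corrected and normalized between arrays, so a change shared by all genes would be removed. The deposited log2 values (3.37 to 14.31) were used as they are.

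Of these, 21789 probe sets carry 1 gene symbol in GEO's platform annotation; the probe set with the highest mean over the 8 arrays was kept per gene (19938 genes). The 3 populations were compared by limma (version 3.58.1, R version 4.3.3), with 1 linear model over all 8 arrays, empirical Bayes moderation and 5 residual degrees of freedom. The 10673 genes tested reached the median of 2 arrays or more. P-values are two-sided, adjusted after Benjamini and Hochberg, with a threshold of 0.05. The procedure was tested on simulated data. Single arrays were compared by differences of 1 log2 unit, for genes whose brighter array reached its median.

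Members, gene lists and rules were chosen with earlier results of these data known. All 10 members are described; of each list up to 4 genes with the largest difference per contrast are named, besides those behind small counts, and for likeness the 3 nearest genes. Of 172 genes on 17 other lists 161 had a usable probe set; the other genes were not analysed here. Comparisons between 2 gates of colitis mice were chosen after the data were seen. Promoters came from RefSeq (GRCm38.p6, 9 of 10 members matched by gene). The precision is limited by the number of arrays.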

Additional observations from a re-analysis of the deposited data

Results flagged for a closer look

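Among the macrophages, 3 values stood apart from the other 3 CX3CR1hi arrays, by a gap that filled most of the range of the 4 arrays. Cxcl1 was lowest in colitis F4/80hi macrophages (8.53, with the others between 9.33 and 9.38). Cxcl13 was lowest in steady-state F4/80hi macrophages (8.37, with the others between 10.45 and 10.54). Cxcl16 was lowest in reconstituted macrophages (12.28, with the others between 12.40 and 12.42), a difference of under 0.14. Such a gap is expected by chance in about 1 in 20 groups, and 10 members were looked at.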

How the results depend on the processing

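The members called in CX3CR1hi against splenic cells numbered 7 to 9 (8 as reported) with each array left out in turn, those in CX3CR1int against CX3CR1hi cells 3 to 5 (5 as reported), and those in CX3CR1int against splenic cells 3 to 6 (5 as reported); where this left a population with 1 array, it was assumed to vary like the others. With only the colitis arrays, limma called 0 members in each contrast and 0 genes in all. In CX3CR1int against CX3CR1hi cells 3 members were called without a brightness filter, and 2 with condition or with the sex label as an added term. Members 2-fold apart in colitis against steady-state F4/80hi cells (2 as reported) were 1 with a filter at the 75th percentile or with arrays centred on their medians, and 0 against the resident array. In Ly6Clo against Ly6Chi cells they were 2 (4 as reported) with the filter at the 75th percentile, and in reconstituted against steady-state F4/80hi cells 2, where against resident cells it was 1. At the 75th percentile Cxcl12 left the comparison of colitis with steady-state F4/80hi cells, as its brighter value (6.74) was below 8.22. Cxcl3 (7.59) and Ppbp (7.23) left that of Ly6Clo with Ly6Chi cells, where the percentile of the Ly6Chi array was 8.20. In colitis against steady-state F4/80hi cells Cxcl12 was 1.10 higher, just above the threshold, and centring moved the median of all genes there by -0.097. Against the resident array Cxcl12 was at 0.82 and Cxcl13 at 0.05. The cause of the other changes in count was not tested.

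Cxcl9 in CX3CR1int against CX3CR1hi cells (0.05) was -0.36 with condition, -0.23 with the sex label, -0.55 with only the colitis arrays, and -0.26 to 0.35 with each array left out, below 0 without the reconstituted or the Ly6Clo array. Cxcl12 in that contrast (-0.24) was -0.54 to 0.059 with each array left out, above 0 without the colitis F4/80hi or the Ly6Clo array. Ppbp in CX3CR1int against splenic cells (0.39) was -0.71 to 1.48, below 0 without the Ly6Chi array. Cxcl13 in colitis against steady-state F4/80hi cells (2.13) was -0.043 against the reconstituted array, where Ppbp (0.41) was -0.93 and Cxcl10 (0.37) -0.16, and Cxcl10 was -0.028 against the resident array. The other differences between single arrays whose sign turned were 0.14 or less in size before and after. Quantile normalization and centring moved the median of all genes by less than 0.1 in each comparison and turned no called member. No paired analysis was possible because each group has 1 array and the labels give no replicate numbers.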
